A study of Oryza sativa Japonica Group with 31 samples.

Results

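Light receptors and the transcription factors that act directly downstream of them were followed in rice leaf after a day in the cold. The genes were chosen by locus identifier: the phytochromes PHYA, PHYB and PHYC, the cryptochromes CRY1a and CRY1b, and the PIF-like factors PIL11, PIL13, PIL14, PIL15 and PIL16. Of these 10 loci, 9 were found among the 55801 loci of the deposited RNA-seq table, and PIL15 (LOC_Os01g18290) was not analysed here. The cold group was Nipponbare (Oryza sativa ssp. japonica) seedlings moved to 4 °C on day 13 and kept there for 24 h. Before that, both groups were grown at a mean of 28 °C by day and 22 °C by night, under 12 h of light and 12 h of dark. The control group (CK in the labels) was seedlings of the same age that stayed in these conditions. The labels name no transgene or mutant, and the tissue of both groups is labelled leaf. The series addresses how R-loops (DNA-RNA hybrids with a displaced DNA strand) relate to transcription of cold-responsive rice genes. It has 31 libraries, of which 4 are RNA-seq libraries, 2 from cold and 2 from control seedlings, and the other 27 were not used here.

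Phytochromes are red and far-red light receptors whose pigment switches between an inactive and an active form. Active phytochromes enter the nucleus and bind PIF (phytochrome-interacting factor) proteins, basic helix-loop-helix transcription factors that promote elongation growth, and in Arabidopsis this leads to PIF degradation. Cryptochromes are blue light receptors that act on overlapping targets, and in Arabidopsis both phytochrome B and PIF proteins also take part in the response to temperature.

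The table gave 1 FPKM value (fragments scaled by locus length and by the depth of the column) for each treatment, so no value below has a replicate error and no difference could be tested. FPKM is scaled by locus length, which allows levels of different genes to be set side by side. Differences are given as ratios of FPKM and as differences of log2(FPKM + 1), cold minus control. The pseudocount of 1 makes the difference of weakly expressed genes smaller. The columns summed to 554475 FPKM in cold and 584870 FPKM in control, with 19907 loci in cold and 20817 in control at 1 FPKM or more, and the number of reads behind them is unknown. The labels do not say at what hour leaves were taken or what light the cold seedlings received. Because the RNA came from whole tissue, fewer cells of a type and less RNA per cell cannot be told apart. The leaf label could not be set against marker genes, as the table does not pair its identifiers with gene names.

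The 3 phytochrome genes differed from one another in direction. PHYA (LOC_Os03g51030, chromosome 3) encodes a receptor for far-red and very weak light. It was listed at 4.15 FPKM in cold and 11.7 FPKM in control, 2.81-fold lower in cold (log2 difference −1.30). PHYB (LOC_Os03g19590, chromosome 3), the main red light receptor of light-grown plants, was listed at 18.4 FPKM in cold and 13.9 FPKM in control, a ratio of 1.32 (log2 difference 0.38). PHYC (LOC_Os03g54084, chromosome 3), whose protein is known in rice to depend on PHYB for its stability, was listed at 28.7 FPKM in cold and 15.9 FPKM in control, a ratio of 1.81 (log2 difference 0.82). PHYA was thus lower in cold, while PHYC and PHYB were listed higher, though short of a 2-fold difference.

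The phytochromes lay close together in control and far apart in cold. The level of PHYC was 6.93 times that of PHYA in cold and 1.36 times in control. PHYB stood at 4.45 times the PHYA level in cold and 1.196 times in control. PHYB and PHYC kept nearer to each other, with PHYC at 1.56 times the PHYB level in cold and 1.14 times in control. A ratio within a column is not altered by any scale factor between the columns. The 3 genes together summed to 51.3 FPKM in cold and 41.5 FPKM in control, of which PHYA held 8.08% in cold and 28.1% in control. PHYC held the largest part in both, 56.0% in cold and 38.3% in control.

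**Figure D1:**
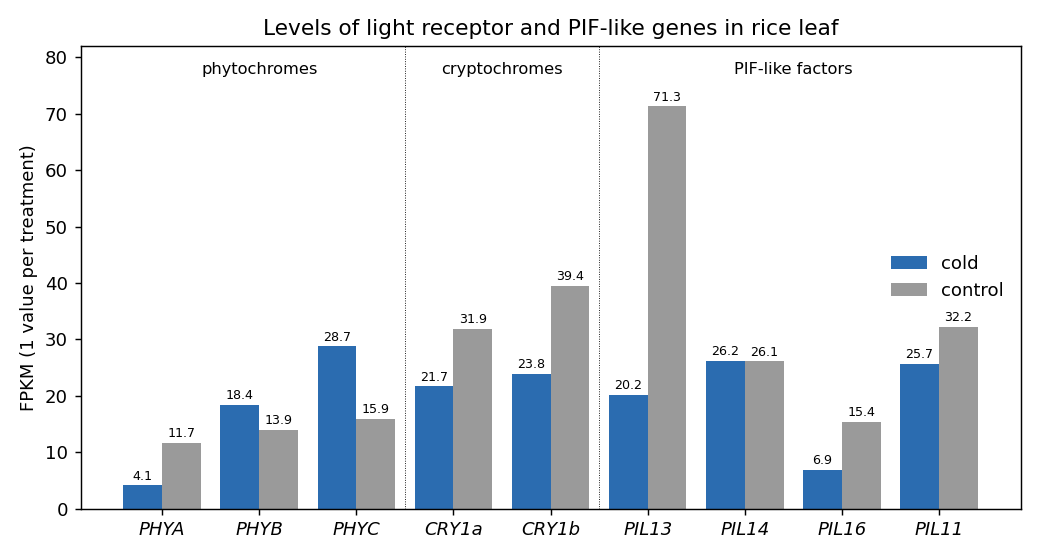
FPKM of each gene in cold (blue, left bar) and control (grey, right bar), 1 value per treatment and no error. PIL13 had the tallest control bar, 71.3 FPKM, while in cold PHYC was highest at 28.7 FPKM and PHYA lowest at 4.15 FPKM.

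Both chosen cryptochrome genes were listed lower in cold, by similar amounts. CRY1b (LOC_Os04g37920, chromosome 4) was at 23.8 FPKM in cold and 39.4 FPKM in control, 1.65-fold lower in cold (log2 difference −0.70). CRY1a (LOC_Os02g36380, chromosome 2) was at 21.7 FPKM in cold and 31.9 FPKM in control, 1.47-fold lower in cold (log2 difference −0.54). Both are blue light receptors that restrain elongation of rice seedlings in light, and neither passed the 2-fold limit. Their balance differed little between treatments, with CRY1b at 1.10 times the CRY1a level in cold and 1.24 times in control. Their summed level was 45.5 FPKM in cold and 71.3 FPKM in control. The phytochrome sum was 51.3 FPKM in cold and 41.5 FPKM in control. It was therefore above the sum of CRY1a and CRY1b in cold and below that sum in control. CRY2 was not among the chosen genes, so the cryptochrome sum leaves it out. The sums lay close in cold, and without replicates their order there is uncertain.

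Among the PIF-like factors, PIL13 had the largest difference of all 9 genes. PIL13 (LOC_Os03g56950, chromosome 3; also called PIL1), known in rice to promote internode elongation, was listed at 20.2 FPKM in cold and 71.3 FPKM in control, 3.53-fold lower in cold (log2 difference −1.77). PIL16 (LOC_Os05g04740, chromosome 5), reported in rice to bind the promoter of a DREB1 cold regulator and to tie PHYB to cold tolerance, was listed at 6.92 FPKM in cold and 15.4 FPKM in control. It was 2.23-fold lower in cold, with a log2 difference of −1.05 that lay just past the limit. PIL11 (LOC_Os12g41650, chromosome 12) was at 25.7 FPKM in cold and 32.2 FPKM in control, a ratio of 0.796 (log2 difference −0.32). PIL14 (LOC_Os07g05010, chromosome 7), linked in rice to seedling elongation, was at 26.2 FPKM in cold and 26.1 FPKM in control, a ratio of 1.003.

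The make-up of the PIF-like group accordingly differed between treatments. PIL13 held 25.6% of the summed level of the 4 factors in cold and 49.1% in control. PIL14 held 33.2% in cold and 18.0% in control, and PIL11 held 32.5% in cold and 22.2% in control. PIL16 was the least abundant of the 4 in both, with 8.76% in cold and 10.6% in control. The level of PIL13 was 0.771 times that of PIL14 in cold and 2.73 times in control, so the order of this pair turned. The 4 genes summed to 79.0 FPKM in cold and 145 FPKM in control, and the difference of PIL13 alone, −51.1 FPKM, made up most of that gap. These shares leave out PIL15, and also PIL12, which was not among the chosen genes.

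**Figure D2:**
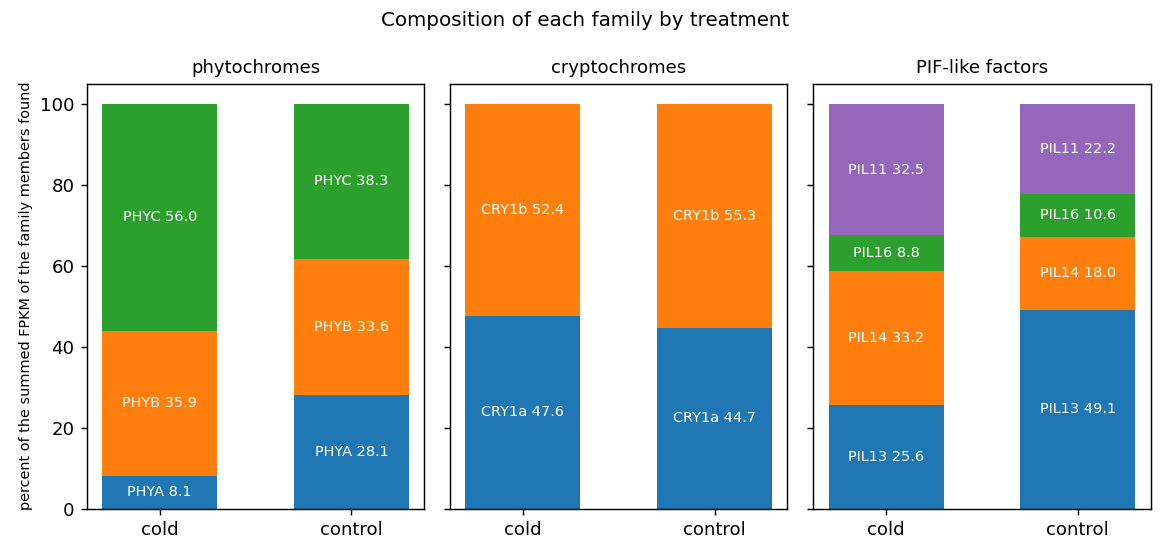
Share of each gene in the summed FPKM of the chosen genes of its family, in percent. Cold is left and control right in each panel, and PIL15, PIL12 and CRY2 are left out. PHYA held 8.08% of the phytochromes in cold, against 28.1% in control. PIL13 held 25.6% of the 4 PIF-like factors in cold, against 49.1% in control, while CRY1a and CRY1b were near an even split in both.

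At the limit of a 2-fold difference on the log2(FPKM + 1) scale, 3 of the 9 genes were lower in cold, namely PIL13, PHYA and PIL16, and 0 were higher. This count depended on the settings, with 1 lower (PIL13) and 1 higher (PHYC) under median-of-ratios scaling of the columns, 2 lower (PIL13 and PHYA) under quantile normalization and 1 lower (PIL13) with a pseudocount of 5 FPKM. The same limit was passed downward by 19.2% and upward by 12.5% of the 20876 loci whose mean over both columns reached 1 FPKM. That balance turned under median-of-ratios scaling, with 10.97% lower and 18.1% higher. It was near even under quantile normalization (14.2% lower and 14.8% higher) and with a pseudocount of 5 FPKM (7.75% lower and 7.97% higher). With a pseudocount of 0.1 FPKM the shares were 25.3% lower and 14.7% higher. With no pseudocount they were 26.0% lower and 15.0% higher, and 3 of the 9 genes were lower under both settings. Median-of-ratios scaling and quantile normalization bring the 2 columns to a common level by construction, so under them the balance cannot show an overall shift. The mean levels of the 9 genes ran from 7.90 to 45.7 FPKM, and among the 9052 loci in that range 17.3% were at least 2-fold lower and 14.0% higher. A count of 3 among 9 genes is too small to set the group apart from these shares. Of the 6 genes within the limit, CRY1a, CRY1b and PIL11 were listed lower in cold, and PHYB, PHYC and PIL14 were listed higher. The median log2 difference of the 9 genes was −0.54, beside −0.27 for all 20876 loci and −0.15 for the 9052 loci of like level. By family the medians were 0.38 for the 3 phytochromes, −0.62 for the 2 cryptochromes and −0.68 for the 4 PIF-like factors.

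Each gene was also read against the median of all loci, which was −0.27 in the values as deposited, where 38.8% of the 20876 loci had a higher value in cold. That median was −0.10 under quantile normalization and 0.029 under median-of-ratios scaling, so whether the typical locus was lower in cold depended on the scaling. The log2 difference of PIL13 less this median was −1.496, and 3.72% of loci had a lower difference than PIL13. That of PHYA less the median was −1.03, with 10.6% of loci lower, and that of PIL16 was −0.78, with 17.4% of loci lower. PHYC lay 1.09 log2 units above the median, and 84.4% of loci had a lower difference. PHYB was 0.65 units above the median and PIL14, near level by its FPKM, was 0.28 units above. PIL11 lay close to the median, at −0.045 units from it. CRY1a at −0.26 and CRY1b at −0.43 from the median were in the broad middle of the distribution, with 37.8% of loci lower than CRY1a and 30.4% lower than CRY1b.

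**Figure D3:**
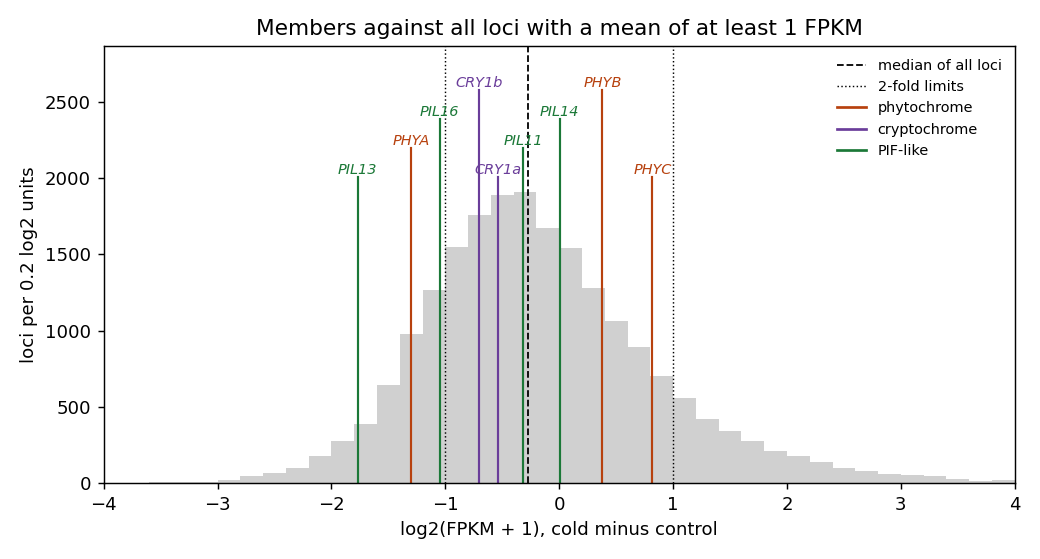
Histogram of the log2(FPKM + 1) difference, cold minus control, over loci whose mean reached 1 FPKM (bars, number of loci per bin), with each gene as a labelled line coloured by family, the median of all loci dashed and the 2-fold limits dotted. PIL13 at −1.77, PHYA at −1.30 and PIL16 at −1.05 lie past the lower limit, and PHYC at 0.82 is the farthest to the right.

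The order of the 9 genes by level differed between treatments. In cold the order from the top was PHYC, PIL14, PIL11, CRY1b, CRY1a, PIL13, PHYB, PIL16 and PHYA. In control it was PIL13, CRY1b, PIL11, CRY1a, PIL14, PHYC, PIL16, PHYB and PHYA. PHYC stood first in cold and 6th in control, and PIL13 stood 6th in cold and first in control, while PHYA was last in both. Of the 36 pairs of genes, 14 changed order and 22 kept it. The ratio of a pair differed at least 2-fold between treatments for 17 pairs and at least 4-fold for 4. Pairs of other loci were not counted and the 36 pairs share genes, so these counts do not set the group apart. The largest such difference was that of PHYC to PIL13, whose ratio was 1.42 in cold and 0.223 in control. Neighbours in these orders lay close, with PIL14 at 1.02 times PIL11 in cold and PIL11 at 1.01 times CRY1a in control, and without replicates such neighbours cannot be told apart.

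PHYA and PIL16 in cold were below the median level of all loci, and the other values of the 9 genes were above it. PHYA exceeded 33.5% of the 20876 loci in cold and 56.7% in control, and PIL16 exceeded 45.8% in cold and 64.9% in control. PIL13 exceeded 73.0% of loci in cold and 93.7% in control. PHYC exceeded 80.6% in cold and 65.8% in control. The median level of the 9 genes was 21.7 FPKM in cold and 26.1 FPKM in control, beside 8.12 FPKM in cold and 9.33 FPKM in control for all 20876 loci.

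The loci next to these genes in the order of the identifiers were mostly weakly expressed or differed less than 2-fold. Of the 18 loci directly before or after the 9 genes, 10 had a mean under 1 FPKM, 4 of them listed at 0 in both treatments. Most loci were weak in this sense, as only 20876 of all 55801 reached a mean of 1 FPKM. Of the other 8 neighbours, 1 was at least 2-fold higher in cold and 0 were at least 2-fold lower. Among the 20876 loci these shares were 12.5% and 19.2%, so the counts do not set the neighbours apart. The higher neighbour, LOC_Os04g37904 before CRY1b, was listed at 44.9 FPKM in cold and 18.1 FPKM in control, the opposite direction to CRY1b. The locus before PHYA, LOC_Os03g51020, was at 28.0 FPKM in cold and 17.0 FPKM in control, again opposite to its neighbour. The locus before PIL13, LOC_Os03g56944, was at 14.1 FPKM in cold and 20.5 FPKM in control, a smaller difference than that of PIL13, and the locus after it, LOC_Os03g56960, had 0.188 FPKM in cold and 0.708 FPKM in control. PIL16 had loci under a mean of 1 FPKM on both sides. PHYA, PHYB, PHYC and PIL13 all lie on chromosome 3 and include both the highest and the lowest log2 difference among the 9 genes, those of PHYC and PIL13.

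Outside the group, the locus nearest to PIL13 in the plane of its log2(FPKM + 1) values was LOC_Os02g41904, at 19.6 FPKM in cold and 70.5 FPKM in control, a distance of 0.048 log2 units. The nearest to PHYC was LOC_Os03g62340, at 28.4 FPKM in cold and 16.0 FPKM in control, a distance of 0.017 log2 units. Within 0.1 log2 units there were 5 other loci for PIL13 and 32 for PHYC. Likeness here rests on 2 values per locus.

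How the columns are scaled against each other bears on how many genes pass the 2-fold limit. Median-of-ratios scaling moved the median of all loci by 0.30 log2 units and quantile normalization by 0.17. Under median-of-ratios scaling PHYC passed the limit at 1.15, PHYA missed it narrowly at −0.999, PIL16 missed it at −0.74, and PIL13 alone remained at least 2-fold lower, at −1.43. Under quantile normalization PIL13 (−1.78) and PHYA (−1.09) were past the limit and PIL16 (−0.90) was not. The sign of PIL11 turned to 0.016 under median-of-ratios scaling, and that of PIL14 to −0.013 under quantile normalization. PIL13 was past the 2-fold limit on the lower side under each of the 6 scalings and pseudocounts tried. A smaller pseudocount, or none, can only enlarge a difference, so those settings could not have failed. For the other 6 genes, PHYA, PIL16, CRY1a, CRY1b, PHYB and PHYC, the direction was the same under all 6. A change of pseudocount cannot turn a sign, so only the scalings could have done so.

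**Figure D4:**
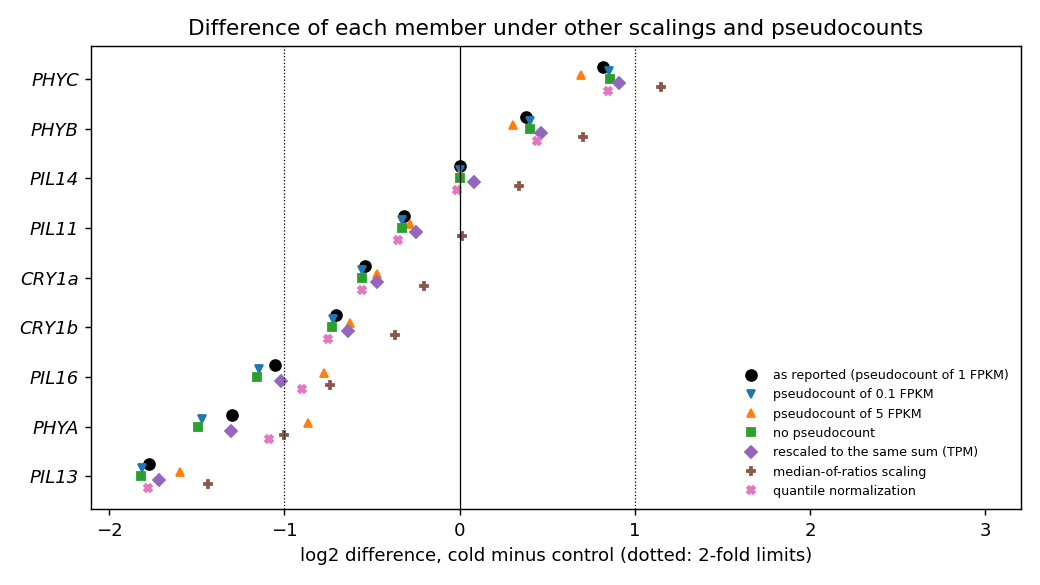
Log2 difference of each gene, cold minus control, as reported (black) and under each of the 6 scalings and pseudocounts (coloured symbols), with the 2-fold limits dotted. PIL13 stays between −1.82 and −1.43, PHYA lies between −1.49 and −0.87 and PIL16 between −1.15 and −0.74, both across the limit, and PHYC lies between 0.69 and 1.15.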

How the data were processed

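RNA-seq of cold and control leaf was described from 1 deposited table of FPKM, which the authors made with 1 column per treatment. The sources used here do not say if a column is a single library, pooled reads or an average, and they give no genome build, annotation, or handling of strand and multi-mapping reads. Trimmomatic 0.39, HISAT2 2.1.0 and featureCounts 1.6.4 are among the tools listed for the series as a whole, per the submitters' processing notes. No test was possible with 1 value per treatment. The background was every locus averaging 1 FPKM or more over both columns (20876 of 55801), a pseudocount of 1 was used, and a 2-fold limit was applied. All 9 genes found, named as in the choice of loci, passed this filter. The genes, lists and limits were chosen with earlier results of these data known. A RefSeq gene table (assembly ASM3414082v1) held the names of 3 of them, PHYA, PHYB and PHYC, all on chromosome 3, and none of their locus identifiers. It paired 0 of the other planned light signalling genes with a locus of the table, so these were not used, and no coordinates or sequences are given. Among loci under 0.3 FPKM in both columns, the commonest cold to control ratio, 1.24, was shared within 0.02% by 56 of 3541 loci. No depth, count or interval was derived from it. The rule for named loci took all genes found, their direct neighbours and the locus nearest to the highest and the lowest log2 difference. Alternatives were other pseudocounts, filters and scalings. Python 3.11.15, numpy 2.4.6, pandas 2.3.3 and matplotlib 3.10.9 were used.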

Additional observations from a re-analysis of the deposited data

How the results depend on the processing

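The alternatives gave 106 values, of which 99 kept within the limits used (0.5 log2 units for a gene or a ratio, 0.1 for a median, a 1.5-fold change of a count, 10 percentage points for a share), and 7 moved. All 54 recomputed values of single genes were among the 99. The other filters could not alter the counts or the median of the 9 genes, whose lowest mean was 7.90 FPKM. Those values were kept by construction. The 0.5 limit is wide, as PHYA, PIL16 and PHYC each crossed the 2-fold limit under some settings and still counted as kept. The sign of PIL11 turned under median-of-ratios scaling (0.016) and that of PIL14 under quantile normalization (−0.013). In the values as deposited they were −0.32 for PIL11 and 0.0043 for PIL14. With a pseudocount of 5 FPKM, 1 gene was at least 2-fold lower, PIL13, and the shares of all loci at least 2-fold lower and higher were 7.75% and 7.97%. Without a filter on low values the lower share was 7.34%, as many loci near 0 then enter. With median-of-ratios scaling 1 gene was at least 2-fold higher and 1 lower, the median of the 9 genes was −0.20, and the balance of all loci turned, to 10.97% lower and 18.1% higher. Taken less the median of all loci, an alternative chosen after seeing the data, that median was −0.26. Background shares for loci of like level were also added after seeing the data. The log2 change of the PHYC to PHYA ratio was 2.35 as deposited and 2.13 with quantile normalization, and that of PIL13 to PIL14 was −1.82 in both. No paired analysis was possible because cold and control are given as a single column each, and leaving out a replicate was not run for the same reason. Without the depth of the columns, no counting error can be put on a gene.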
